A study of Drosophila melanogaster with 13 samples.

Results

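Neuropeptides are cut out of larger precursors and modified inside dense core vesicles before release, and 5 genes of this route were followed here: amon, svr, Phm, IA-2 and Cadps. They were taken by symbol from the RNA count table, where all 5 were found among 17633 genes and all 5 had enough counts to be tested, as did 7451 genes in all. A convertase, the product of amon, cleaves precursors at basic residues. Carboxypeptidases such as the product of svr trim the exposed basic residues, and Phm, a copper-dependent monooxygenase, starts the amidation that many peptides need to be active. IA-2 is a transmembrane protein of dense core vesicles, and Cadps (CAPS) primes these vesicles for release. Such vesicles are made in quantity by peptidergic neurons and in smaller numbers by many others.

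RNA came from flow-sorted clone cells of the optic lobe, the visual part of the *Drosophila* brain, at the wandering L3 stage. There were 3 libraries each of lola[E76] mutant clones, nerfin-1[159] mutant clones and WT clones. Lola and Nerfin-1 are zinc finger factors that keep young neurons from turning back into dividing neuroblasts. The columns are named Lola42D, Nerfin2A and FRT42D (WT), after recombination sites on the arms 2R and 3L, so the WT clones are named for the site of the lola[E76] clones only. No source used here states the driver and marker of the clones or the sex of the larvae. Each library is a pool of sorts from several days, with no animals named, and the p-values therefore rest on the spread between pools, which may be partly technical. Lola.N, 1 isoform of Lola, was mapped by Targeted DamID (a Dam methylase fusion that marks the DNA it meets) in ey16F10-GAL4 cells of L3 larvae, where the replicates N1 and N2 have a peak list each. These are not the cells of the RNA clones, and the tissue is labelled as brain.

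Libraries held 3465601 to 5200223 counts, and CPM below are counts relative to library size after TMM scaling, with 3 counts worth 0.577 to 0.866 CPM before that scaling. Tags are read near the 3′ end of a transcript by QuantSeq and do not grow with its length, and no level is compared here between genes. The nerfin-1 gene had 65, 27 and 8 counts in nerfin-1[159] libraries against 1157, 1263 and 1452 in WT libraries. The lola gene was at 1984 ± 222 CPM in lola[E76] and 1763 ± 173 CPM in WT clones (SD, n = 3 each). Whether those tags lie in the part altered by lola[E76] is not given, so they check nothing. In nerfin-1[159] clones lola was at 2565 ± 117 CPM (log2 0.54 from WT, edgeR adjusted p = 0.00124). In lola[E76] clones nerfin-1 was at 139 ± 15.0 CPM, against 284 ± 25.8 CPM in WT (log2 -1.03, edgeR adjusted p = 0.0341). The latter call was lost under 9 of 16 alternatives. lola[E76] replicate 1 stood apart from the other two libraries of its genotype, at 40.4 on the third principal component against -39.2 and -28.7.

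The sorted cells were checked against markers. All 7 neuron markers were detected in every genotype, with a summed level of 7957 to 8738 CPM in lola[E76], 5963 to 6975 CPM in nerfin-1[159] and 8911 to 10620 CPM in WT libraries. In lola[E76] clones 1 of the 7 was called lower, and in nerfin-1[159] clones 5 were. Of all tested genes, 2.91% were called lower and 3.58% higher in lola[E76] clones, and 6.27% and 5.66% in nerfin-1[159] clones. The 6 neuroblast markers summed to 369 to 427 CPM in lola[E76], 953 to 1103 CPM in nerfin-1[159] and 103 to 269 CPM in WT libraries, with 3 and 6 called higher in lola[E76] and nerfin-1[159] clones. WT replicate 1 stood apart here, at 103 CPM against 262 and 269 CPM in WT replicates 2 and 3. The 8 muscle markers summed to 150 to 242 CPM in lola[E76], 54.9 to 93.2 CPM in nerfin-1[159] and 27.0 to 36.9 CPM in WT libraries. In lola[E76] clones 4 of 7 tested muscle markers were called higher (up, wupA, Mlc2 and Tm2), and in nerfin-1[159] clones 1 was, bt, which averaged 58.8 CPM there. Those 4 had enough counts to be tested only through the lola[E76] libraries (wupA had 3, 0 and 0 counts in WT libraries). They could hardly have been called lower in lola[E76] clones, so the direction of these 4 calls was partly fixed by the count filter. For 10 glial markers the sums were 200 to 297, 216 to 249 and 178 to 206 CPM in lola[E76], nerfin-1[159] and WT libraries. For 8 haemocyte and fat body markers they were 26.9 to 55.9, 195 to 272 and 5.13 to 17.5 CPM, with the haemocyte gene NimC1 at 0 in all libraries. The collagen gene Col4a1, called higher in both mutants, averaged 29.4, 236 and 5.09 CPM of these. Unlike NimC1, the haemocyte gene Hml was detected, though with too few counts to be tested. It had 12, 15 and 2 counts in lola[E76], 8, 2 and 0 in nerfin-1[159] and 1, 0 and 1 in WT libraries. The 6 eye disc markers summed to 30.6 CPM at most. The part of these shifts in the results below was not tested, and in such bulk samples fewer cells of a type and less RNA per cell cannot be told apart.

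Of these 5 genes 2, amon and IA-2, changed most and in unlike ways. The convertase gene amon was all but absent from lola[E76] clones, and IA-2 was higher in lola[E76] but lower in nerfin-1[159] clones than in WT. The carboxypeptidase gene svr was moderately lower in both mutants, while Phm and Cadps were not called in any comparison. In lola[E76] against WT, 3 of the 5 were called, where 6.5% of all tested genes were, and of these 2 were lower and 1 higher, where 2.91% and 3.58% of tested genes were. In nerfin-1[159] against WT, 2 were called, both lower, where 11.9% of tested genes were called, 6.27% lower and 5.66% higher. The 5 genes were chosen with earlier results of these data known, so these shares do not test them as a group. Called means an adjusted p under 0.05 in edgeR's quasi-likelihood test, two-sided, with Benjamini-Hochberg adjustment over all 7451 genes. Both mutants are set against the same WT libraries, so their comparisons with WT are not independent.

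**Figure D1:**
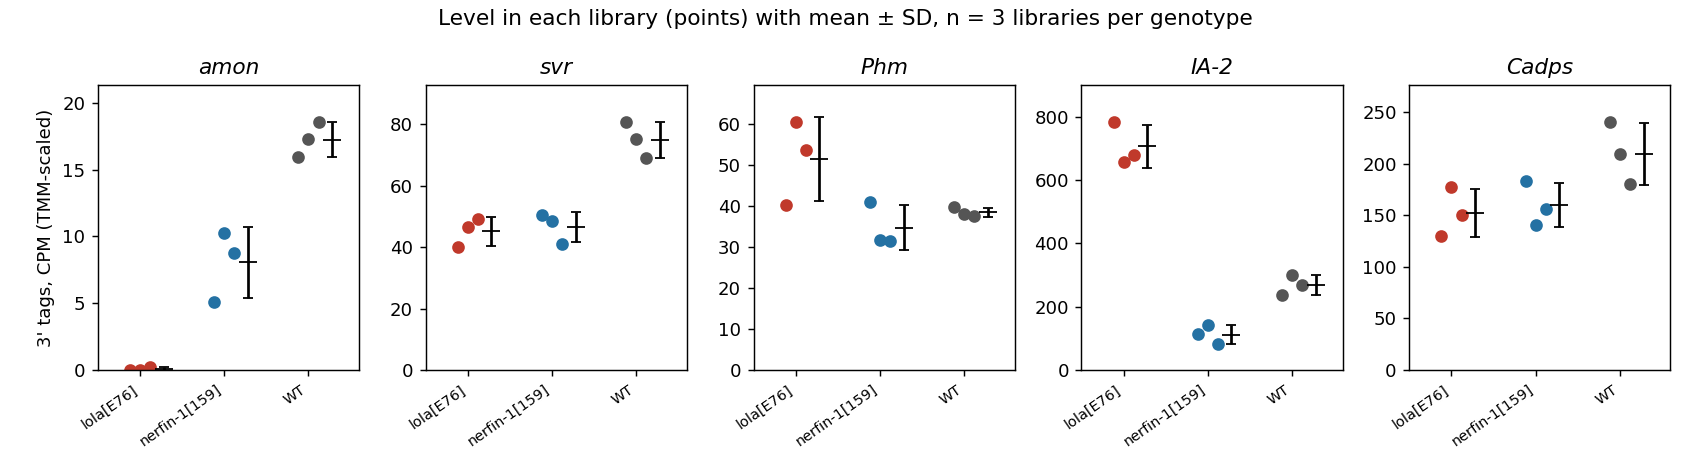
Level of each gene in CPM (vertical axis from 0, own scale per panel) in the 3 libraries of lola[E76], nerfin-1[159] and WT clones, with the mean ± SD beside the points. amon is at 0 to 0.223 CPM in lola[E76] libraries, IA-2 separates all 3 genotypes, and svr lies below WT in all 6 mutant libraries.

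The gene amon (FBgn0023179, chromosome arm 3R) encodes the fly prohormone convertase of the PC2 type. It had 0, 0 and 1 counts in the lola[E76] libraries, 18, 41 and 33 in the nerfin-1[159] libraries (5.10, 10.3 and 8.80 CPM) and 59, 83 and 98 in the WT libraries (15.9, 17.3 and 18.6 CPM). The groups did not overlap: every lola[E76] library lay below every nerfin-1[159] library, and these lay below every WT library. The lola[E76] sum of 1 count was 0.00433 times the WT sum of 240 counts after scaling for depth (95% exact interval 0.000109 to 0.0244, counting error only). Set against the 92 counts of nerfin-1[159] clones it was 0.00924 times as large (0.000232 to 0.0528).

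The fall of amon in lola[E76] clones was called (edgeR adjusted p = 1.09e-05 against WT and 2.8e-05 against nerfin-1[159]). The fitted log2 differences of -7.37 ± 0.81 and -6.27 ± 0.83 (SE) rest on that single count and on the prior count of the fit. That count came from lola[E76] replicate 3. Both calls held whichever of the 9 libraries was left out (edgeR adjusted p up to 0.000222). In nerfin-1[159] clones amon averaged 8.06 ± 2.67 CPM against 17.3 ± 1.32 CPM in WT (SD, n = 3 each), a log2 difference of -1.09 ± 0.49 that was not called (edgeR adjusted p = 0.186; 95% interval -2.13 to -0.06). Its libraries lay wholly below those of WT, as did those of 15.6% of tested genes.

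The near absence of amon tags was set beside other neuronal genes and beside its neighbours on 3R. elav, an RNA-binding protein of all neurons, had 9028, 11305 and 8782 counts in the same lola[E76] libraries and was not called (log2 difference -0.18, edgeR adjusted p = 0.378 against WT). Of the 10 nearest tested genes, 5 on either side of amon, 1 was called higher and 0 lower in lola[E76] against WT, with log2 differences from -0.71 to 1.36. Of the same 10 genes in nerfin-1[159] clones, 2 were called higher and 1 lower. Over the 9 libraries, the genes nearest to amon in profile, among tested genes above a set level, were nSyb, the SNARE protein of synaptic vesicles, and CG11155. Their mean-centred log2 CPM differed from that of amon by 0.759 and 0.834 (root mean square, among 5142 genes with a mean log2 CPM of at least 3). amon itself was below that level, so tested genes as sparse as amon were not compared. Both differences were larger than those of the nearest profiles of the other genes followed (0.072 to 0.257). nSyb averaged 30.1 ± 25.6 CPM in lola[E76], 141 ± 17.5 CPM in nerfin-1[159] and 415 ± 31.8 CPM in WT clones, the same order as amon. CG11155 averaged 12.6 ± 2.98 CPM in lola[E76], 87.3 ± 2.21 CPM in nerfin-1[159] and 115 ± 22.1 CPM in WT clones.

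The gene svr (silver, FBgn0004648, X chromosome) encodes carboxypeptidase D. It had 39.9, 46.5 and 49.1 CPM in lola[E76] libraries, 50.4, 48.4 and 41.0 CPM in nerfin-1[159] libraries and 80.8, 75.2 and 69.0 CPM in WT libraries. All 6 mutant libraries lay below all 3 WT libraries, and the mutants overlapped each other. The level was 45.2 ± 4.75 CPM in lola[E76] and 75.0 ± 5.90 CPM in WT clones (SD, n = 3 each), so that it fell by 39.6% (log2 -0.73 ± 0.19, SE; edgeR adjusted p = 0.0219). The level in nerfin-1[159] clones was 46.6 ± 4.92 CPM, so that svr fell by 37.8% (log2 -0.68 ± 0.19; edgeR adjusted p = 0.0204). The mutants differed from each other by -0.04 ± 0.19 (lola[E76] minus nerfin-1[159], edgeR adjusted p = 0.924), with a 95% interval of -0.44 to 0.35.

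These svr calls were not robust to the loss of a library, though all 9 values stayed negative in both comparisons. In lola[E76] clones svr was no longer called when WT replicate 1 or 2, or replicate 1 or 2 of lola[E76], was left out (edgeR adjusted p of at most 0.106), with log2 values of -0.80 to -0.64 over all 9 fits. The same held in nerfin-1[159] clones when WT replicate 1 or 2, or replicate 2 or 3 of nerfin-1[159], was left out (at most 0.0957), with -0.75 to -0.60 over all 9 fits. By profile, svr was most like gb and Evi5 (root mean square differences of 0.072 and 0.121 among 5141 genes). gb averaged 97.5 ± 8.11 CPM in lola[E76], 106 ± 15.6 CPM in nerfin-1[159] and 164 ± 18.5 CPM in WT clones.

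The gene Phm (FBgn0283509) encodes the monooxygenase that begins C-terminal amidation. It had 40.4, 60.5 and 53.6 CPM in lola[E76] libraries, 41.1, 31.8 and 31.5 CPM in nerfin-1[159] libraries and 39.7, 38.1 and 37.7 CPM in WT libraries. The lola[E76] libraries lay above those of WT, the lowest by less than 1 CPM, while nerfin-1[159] libraries overlapped both. The log2 difference from WT was 0.42 ± 0.22 in lola[E76] clones (edgeR adjusted p = 0.326; 95% interval -0.04 to 0.89) and -0.15 ± 0.22 in nerfin-1[159] clones (edgeR adjusted p = 0.796; -0.62 to 0.32). Between the mutants it was 0.57 ± 0.22 (edgeR adjusted p = 0.098), and it was called only without lola[E76] replicate 1 (0.72, edgeR adjusted p = 0.0344). Mean levels ran from lola[E76] through WT to nerfin-1[159] clones, and no pair of adjacent genotypes in that order was called different. Phm lies on 2R, as does lola, so that a variant linked to lola[E76] and the loss of Lola cannot be told apart for it. The nearest profiles were those of CadN, a neuronal cadherin, and CG11307 (root mean square differences of 0.12 and 0.124).

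The gene IA-2 (FBgn0031294, arm 2L) encodes the vesicle membrane protein, a relative of receptor tyrosine phosphatases. It had 3235, 3044 and 3038 counts in lola[E76] libraries (783, 656 and 679 CPM), 398, 564 and 302 in nerfin-1[159] libraries (113, 141 and 80.5 CPM) and 879, 1433 and 1412 in WT libraries (237, 298 and 268 CPM). No 2 genotypes overlapped: lola[E76] was highest, WT in between and nerfin-1[159] lowest. IA-2 rose to 706 ± 67.7 CPM in lola[E76] clones, against 268 ± 30.5 CPM in WT (SD, n = 3 each), 2.63-fold (log2 1.40 ± 0.16, SE; edgeR adjusted p = 1.46e-05). It fell to 112 ± 30.5 CPM in nerfin-1[159] clones, 0.417 times the WT level (log2 -1.26 ± 0.16; edgeR adjusted p = 2.75e-05).

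Between the mutants IA-2 was 6.32-fold higher in lola[E76] than in nerfin-1[159] clones (log2 2.66 ± 0.17; edgeR adjusted p = 7.05e-09). All 3 calls held under every one of 16 other settings, with log2 values of 1.32 to 1.48, -1.48 to -1.08 and 2.47 to 2.88. The Release 6 gene table places 3 genes over IA-2, the antisense asRNA:CR46486, CG4375 and gNacalpha. They held at most 16, 0 and 3 counts in any library, and whether counting used the strand is not given. The tested genes most like IA-2 in profile were CG42450 and CG10019 (root mean square differences of 0.226 and 0.257). CG42450 averaged 168 ± 5.38 CPM in lola[E76], 23.5 ± 4.74 CPM in nerfin-1[159] and 73.5 ± 3.03 CPM in WT clones.

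The gene Cadps (FBgn0053653, chromosome 4) encodes the priming factor CAPS. It had 130, 177 and 150 CPM in lola[E76] libraries, 183, 140 and 156 CPM in nerfin-1[159] libraries and 240, 209 and 180 CPM in WT libraries. The lola[E76] libraries lay just below those of WT, and nerfin-1[159] replicate 1 overlapped them. The level was 152 ± 23.4 CPM in lola[E76], 160 ± 21.8 CPM in nerfin-1[159] and 210 ± 30.2 CPM in WT clones. Log2 differences from WT were -0.46 ± 0.15 (edgeR adjusted p = 0.0904; 95% interval -0.78 to -0.13) in lola[E76] and -0.39 ± 0.16 (edgeR adjusted p = 0.123; -0.71 to -0.07) in nerfin-1[159] clones, and neither was called. The mutants differed by -0.07 ± 0.16 (edgeR adjusted p = 0.836; -0.40 to 0.26). With no filter on low counts, the difference of lola[E76] clones from WT was called (edgeR adjusted p = 0.0383). The nearest profiles were those of pod1, a cytoskeletal crosslinker, and L (Lobe), with root mean square differences of 0.105 and 0.106.

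**Figure D2:**
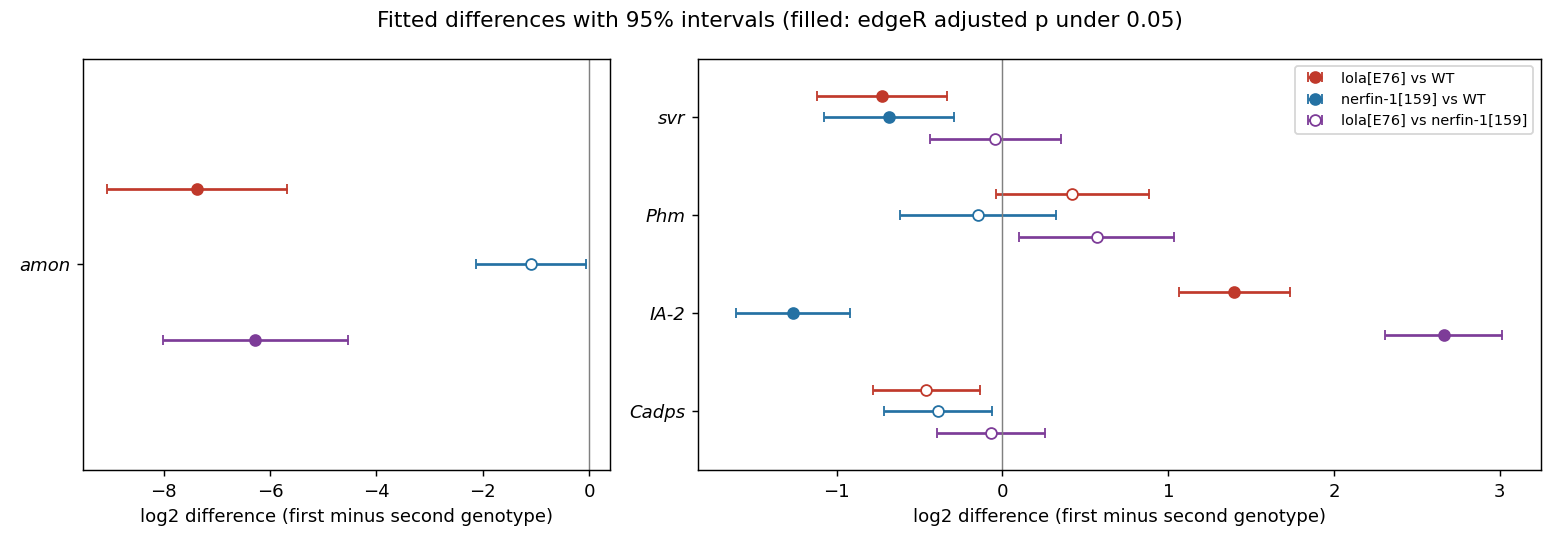
Fitted log2 differences (horizontal axis) with 95% intervals for the 5 genes in 3 comparisons, amon on a scale of its own. Filled points passed the test: amon at -7.37 and -6.27 in the comparisons of lola[E76] clones, svr at -0.73 and -0.68 against WT, and IA-2 at 1.40, -1.26 and 2.66.

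Side by side, the 5 genes did not move as a unit. In lola[E76] clones the vesicle protein IA-2 rose while the convertase amon and the carboxypeptidase svr fell. IA-2 and svr both fell in nerfin-1[159] clones. Libraries did not overlap for 5 of the 5 genes between lola[E76] and WT, where 24.8% of tested genes had libraries apart. For nerfin-1[159] and WT it was 3 of 5, against 30.5% of tested genes. Between lola[E76] and nerfin-1[159] clones the libraries of 2 of 5, amon and IA-2, did not overlap, against 30.3% of tested genes. The same 2 were called, where 15.5% of tested genes were, amon lower (6.94%) and IA-2 higher (8.58%).

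The other enzymes and helpers of peptide processing held 1 change, of another convertase. Of 9 listed genes 8 were tested. In lola[E76] clones 1 rose and 0 fell, where 3.58% and 2.91% of tested genes were called higher and lower. The list median was -0.33 (log2), against -0.0016 for all tested genes. No gene of the list was called in nerfin-1[159] clones (0 of 8 by edgeR, DESeq2 or limma voom, and 2 at an unadjusted edgeR p under 0.05), with a median of -0.40, against 0.0021 for all tested genes. Among all tested genes 11.9% were called there. Fur1, a furin-type convertase that cleaves precursors in the secretory pathway, had 1081, 1742 and 1563 counts in lola[E76] libraries, 378, 271 and 285 in nerfin-1[159] libraries and 369, 484 and 563 in WT libraries. It rose to 329 ± 59.6 CPM in lola[E76] clones against 102 ± 3.77 CPM in WT (log2 1.68 ± 0.17; edgeR adjusted p = 5.83e-06), and was at 83.7 ± 20.6 CPM in nerfin-1[159] clones (-0.29 ± 0.17 from WT; edgeR adjusted p = 0.357). Every lola[E76] library lay above every other library. Of the 3 convertase genes followed, Fur1 was thus higher in lola[E76] clones and amon was at 0 to 1 counts.

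Fur2, the second furin-type convertase, was not called in lola[E76] clones (log2 -0.01 from WT, edgeR adjusted p = 0.995). 7B2, which in mammals is the chaperone of PC2, had 92, 117 and 96 counts in lola[E76] libraries, 91, 95 and 92 in nerfin-1[159] libraries and 119, 167 and 204 in WT libraries. Its levels were 23.0 ± 1.98 CPM in lola[E76], 24.7 ± 0.986 CPM in nerfin-1[159] and 35.2 ± 3.28 CPM in WT clones, with log2 differences from WT of -0.62 and -0.51 that were not called (edgeR adjusted p = 0.16 and 0.22). Pal1 and Pal2, the lyases that complete amidation after Phm, averaged 12.5 ± 2.25 and 4.04 ± 3.92 CPM in lola[E76], 23.4 ± 5.24 and 2.80 ± 1.29 CPM in nerfin-1[159] and 20.4 ± 3.78 and 9.91 ± 3.18 CPM in WT clones. Neither was called against WT (edgeR adjusted p from 0.187 to 0.813). The copper transporters ATP7 and Ctr1A, which serve copper enzymes, and the protease CtsL1 were not called either (edgeR adjusted p from 0.375 to 0.797 in lola[E76] and from 0.511 to 0.617 in nerfin-1[159] clones). The carboxypeptidase gene CG4678 had too few counts to be tested.

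Genes of vesicle formation and release were called lower more often than higher in both mutants. The list holds much machinery that dense core and synaptic vesicles share. Of 26 listed, 23 were tested. In lola[E76] clones 0 rose and 4 fell (median log2 -0.26), where 3.58% of tested genes were called higher and 2.91% lower. In nerfin-1[159] clones 1 rose and 7 fell (median -0.17), where 5.66% were called higher and 6.27% lower. Between lola[E76] and nerfin-1[159] clones 5 were called higher and 3 lower, where 8.58% and 6.94% of tested genes were.

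The largest of the 4 falls in lola[E76] clones were of nSyb, Syt4 and Vmat. nSyb fell by 3.78 ± 0.35 on the log2 scale, and by 4.75 without lola[E76] replicate 3. Syt4, a synaptotagmin found on dense core vesicles in mammals, had 188, 186 and 509 counts in lola[E76] libraries, 677, 695 and 666 in nerfin-1[159] libraries and 1315, 1483 and 1451 in WT libraries. Its log2 difference from WT was -2.23 ± 0.27 in lola[E76] (edgeR adjusted p = 2.31e-05; -2.87 without lola[E76] replicate 3) and -0.79 ± 0.25 in nerfin-1[159] clones (edgeR adjusted p = 0.0494). The second of these calls was lost without any 1 of the 6 libraries compared, by library size only or by DESeq2's Wald test (adjusted p up to 0.206). Vmat, the vesicular monoamine transporter, fell in lola[E76] to 4.23 ± 2.81 CPM and rose in nerfin-1[159] clones to 54.3 ± 16.6 CPM, against 14.4 ± 2.74 CPM in WT. Its fall was -1.76 ± 0.40 (edgeR adjusted p = 0.00987; -2.44 without lola[E76] replicate 3) and was lost with limma voom or a fit on both genotypes alone (adjusted p up to 0.0671), and its rise was 1.91 ± 0.36 (edgeR adjusted p = 0.00123).

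The largest falls of this list in nerfin-1[159] clones were of Snap25, a SNARE protein of release (9.11 ± 3.41 CPM, while WT was at 36.8 ± 6.46 CPM; edgeR adjusted p = 0.000552), Rab3, a GTPase of secretory vesicles (log2 -1.74 ± 0.26; edgeR adjusted p = 0.000118), and nSyb (-1.55 ± 0.31; edgeR adjusted p = 0.00206). Rab3 averaged 20.7 ± 8.78 CPM in nerfin-1[159] and 69.3 ± 5.97 CPM in WT clones, and 76.7 ± 4.57 CPM in lola[E76] clones. Rab3, Snap25 and Syt7, a calcium sensor of release, were the genes of this list most above nerfin-1[159] in lola[E76] clones among those called (log2 1.89, 1.41 and 0.94; edgeR adjusted p = 4.25e-05, 0.00785 and 0.00144).

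dimm, the basic helix-loop-helix factor that turns on the peptidergic programme in fly neurons, had too few counts to be tested. Its counts were 0, 0 and 0 in lola[E76] libraries, 0, 0 and 0 in nerfin-1[159] libraries and 11, 4 and 4 in WT libraries. With 3 counts over a group as the floor, WT stood 6.09-fold above the floor of lola[E76] and 5.18-fold above that of nerfin-1[159] clones. Without WT replicate 1 these values were 3.51-fold and 2.98-fold. They take the WT counts as exact and leave out the spread between libraries, so the true folds may be smaller. As the single marker listed for neuroendocrine cells, its part in the change of amon was not tested.

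Neuropeptide precursors themselves were sparse in these clones. Of 44 precursor genes 5 had enough counts to be tested. Any counts at all were seen for 23 genes in lola[E76], 21 in nerfin-1[159] and 30 in WT libraries. The summed level was 72.6 to 121 CPM in lola[E76], 11.3 to 22.4 CPM in nerfin-1[159] and 58.1 to 67.3 CPM in WT libraries. ITP, described next, made up most of the sum in lola[E76] libraries. Without it, a choice made after its values were seen, the sums were 19.2 to 43.6 CPM in lola[E76], 6.51 to 16.8 CPM in nerfin-1[159] and 45.1 to 61.6 CPM in WT libraries, so that lola[E76] lay below WT. Among the 5 tested, 1 rose and 0 fell in lola[E76] clones. In nerfin-1[159] clones 0 were called by edgeR or limma voom. All 5 lay below WT there (4 at an unadjusted edgeR p under 0.05, and 3 called by DESeq2). Of these, Dh31 passed the count filter only through the WT libraries. Its mean was 8.32 CPM for WT, 1.19 CPM for lola[E76] and 0.628 CPM for nerfin-1[159] clones. Dh31 could hardly have lain above WT, so its direction was partly fixed by the filter.

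The precursor that rose was ITP, the ion transport peptide. It had 362, 248 and 200 counts in lola[E76] libraries, 17, 18 and 21 in nerfin-1[159] libraries and 36, 27 and 100 in WT libraries. It rose to 61.9 ± 22.7 CPM in lola[E76] clones against 11.4 ± 6.83 CPM in WT (log2 2.42 ± 0.38; edgeR adjusted p = 0.000343; 3.02 without WT replicate 3). Against the 4.98 ± 0.560 CPM of nerfin-1[159] clones it was higher by 3.63 ± 0.41 (edgeR adjusted p = 4.88e-06). ITP is on 2R with lola, so the limit given for Phm holds for it too, as it does for Vmat, Rab3, Pal1, Pal2 and CtsL1. Likewise nSyb, Snap25 and sNPF-R are on 3L with nerfin-1, and for their falls in nerfin-1[159] clones a variant linked to that allele and the loss of Nerfin-1 cannot be told apart. The WT clones are named for the same recombination site as the lola[E76] clones. For every gene, then, site and genotype differ together in comparisons with nerfin-1[159] clones and cannot be told apart. Some precursors below the filter were seen mainly in WT libraries. Dh44, a diuretic hormone, had 0 counts in all 6 mutant libraries and 8, 15 and 1 in the WT libraries. Crz (corazonin) had 0, 0 and 1 counts in lola[E76], 0, 0 and 0 in nerfin-1[159] and 8, 17 and 12 in WT libraries. Other precursors below the filter went the other way. Mip had 0, 17 and 5 counts in lola[E76] and 0, 0 and 3 in WT libraries. Ptth had 8, 2 and 16 counts in lola[E76] and 3, 0 and 2 in WT libraries. All of these precursors were chosen after their values were seen.

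Of 39 neuropeptide receptors 13 were tested, and 0 were called in lola[E76] clones by edgeR, DESeq2 or limma voom, with 1 at an unadjusted edgeR p under 0.05 (median log2 0.06). Among all tested genes 6.5% were called there. The nerfin-1[159] clones had 0 rises and 2 falls (median -1.09), where 5.66% and 6.27% of tested genes were called higher and lower. CCAP-R, the receptor of crustacean cardioactive peptide, had 26, 67 and 87 counts in lola[E76], 0 in all 3 nerfin-1[159] and 39, 3 and 17 in WT libraries. With the floor used for dimm and the WT counts taken as exact, it was 16.1-fold lower in nerfin-1[159] clones than in WT (edgeR adjusted p = 0.00451; 0.153 with limma voom). Without WT replicate 1, which held 39 of the counts, it was 7.46-fold lower by the same reckoning (edgeR adjusted p = 0.0208). sNPF-R, the receptor of short neuropeptide F, had 19, 31 and 7 counts in nerfin-1[159] libraries, against 92, 99 and 108 in WT libraries (log2 -2.12 ± 0.42; edgeR adjusted p = 0.00194). Between lola[E76] and nerfin-1[159] clones 5 receptors were called higher and 0 lower, where 8.58% and 6.94% of tested genes were. Among the 5 were CCAP-R (edgeR adjusted p = 0.000491), sNPF-R (edgeR adjusted p = 0.0011), rk, the bursicon receptor (edgeR adjusted p = 0.0054), and AstA-R2, an allatostatin receptor (edgeR adjusted p = 0.0239). Both rk and AstA-R2 had 1 count over the nerfin-1[159] libraries. AstA-R2 had 10, 12 and 37 counts in lola[E76] and 3, 5 and 1 in WT libraries, so it passed the count filter through the lola[E76] libraries. rk, with 9, 6 and 13 counts in WT libraries, and CCAP-R also passed only with the lola[E76] libraries. A gene that passes in this way can hardly be called lower in lola[E76] clones. The direction of the 5 calls was thus partly fixed by the filter. The AstA-R2 call was lost without any 1 of the nerfin-1[159] libraries, without WT replicate 2, with limma voom or with the replicate block (adjusted p up to 0.11).

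**Figure D3:**
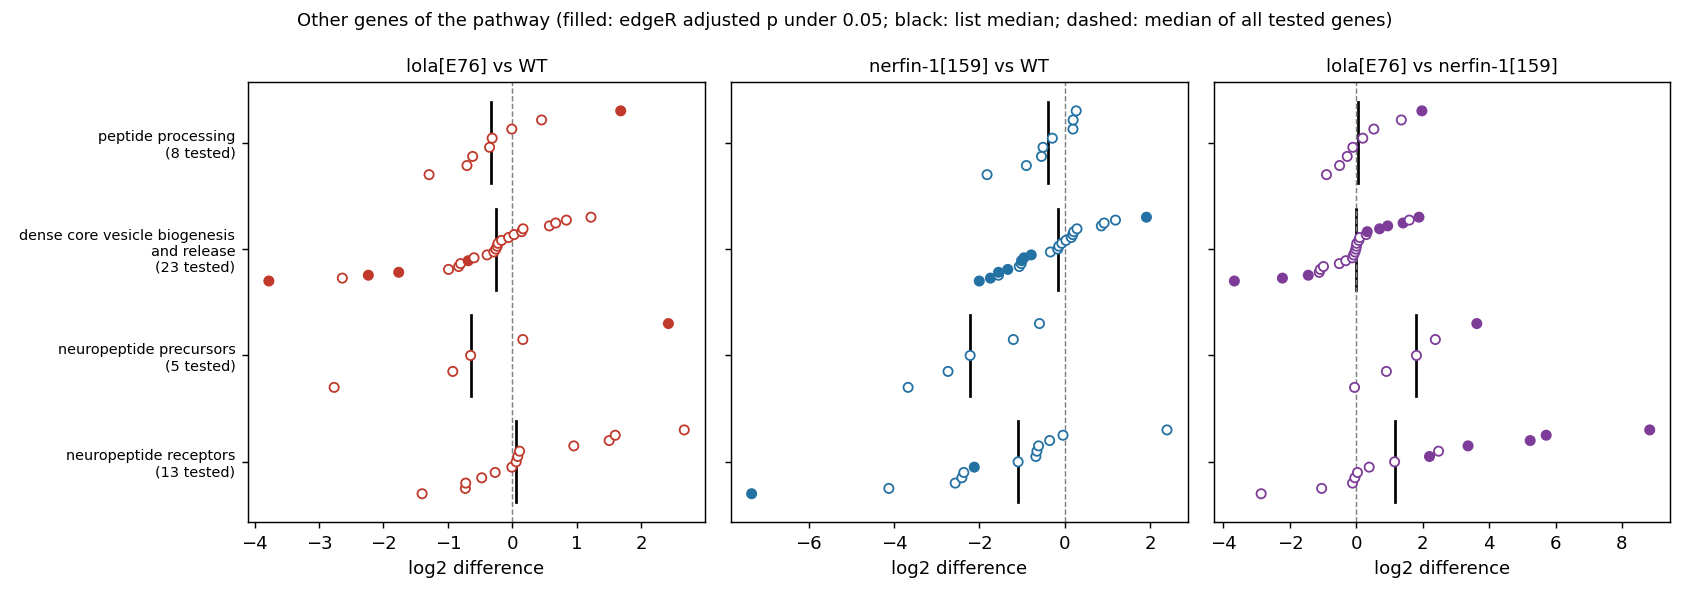
Log2 differences (horizontal axes) of the tested genes of 4 lists in 3 comparisons, 1 point per gene, filled where the gene passed the test, with the list median in black and the median of all tested genes dashed. In lola[E76] against WT the filled points on the right are Fur1 at 1.68 and ITP at 2.42, and in lola[E76] against nerfin-1[159] the receptors have 5 filled points, all above 0. The direction of these 5 was partly fixed by the count filter.

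Lola.N contact at the 5 loci was read from the authors' peaks, placed against the gene table of Release 6 of the fly genome. No source used here states the build of the peak files. Peaks reach 32.08 Mb on 3R, which is longer than 3R in the earlier Release 5. An interval of both replicates overlapped the gene body or 1 kb on either side at 2 of the 5 genes, IA-2 and svr. Among tested genes 28.3% held such an interval, and 48.6% of the longest genes (the top group of 5 equal groups by length), to which amon, IA-2, svr and Cadps belong. Of genes called in lola[E76] against WT, 51.5% of those higher and 44.2% of those lower held one. Of genes not called, 26.9% did, with gene length not matched. The table gives no strand, so start and end of a gene are not told apart. Scores are the authors' own, on a scale that is not given.

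At IA-2 both replicates had a pair of peaks inside the gene. The interval 2L:1010891-1011214 had scores of 3.37 in N1 and 1.48 in N2, higher than or equal to those of 73.9% and 33.6% of the peaks in each list. The interval 2L:1015643-1016192 had the same bounds in both lists and scores of 3.89 and 2.99, at 83.2% and 82.4% of each list. They lie 2.51 and 7.26 kb from the nearer end of the gene. With only the peaks that scored at or above the median of their list, 1 of the 2 was left.

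At svr the peak X:496452-497067 was inside the gene and 0.01 kb from one of its ends, with the same bounds in both lists and scores of 4.51 in N1 and 3.22 in N2, at 90.9% and 86% of each list. The interval X:509479-509882, with scores of 2.85 and 1.97, lay 0.41 kb beyond the other end, where the next gene of the table is elav. One more peak, X:504861-505458, was in N1 only, with a score of 2.19.

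amon, the gene with the deepest loss of tags in lola[E76] clones, had no peak of either replicate within the window. Its nearest peak was 16.4 kb away in N1 and 156.2 kb away in N2. Cadps had its nearest peak 4.1 kb away in both lists, and Phm had one 3.9 kb away in N1 and another 2.2 kb away in N2 that did not overlap. Fur1, 7B2, Syt4, Vmat and dimm had 0 intervals of both replicates within 1 kb, while nSyb and Snap25 had 2 each and ITP 1. Over the lists, intervals were found at 1 of 8 tested processing genes, 6 of 23 vesicle genes, 3 of 5 precursors and 1 of 13 receptors, against the 28.3% of all tested genes.

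**Figure D4:**
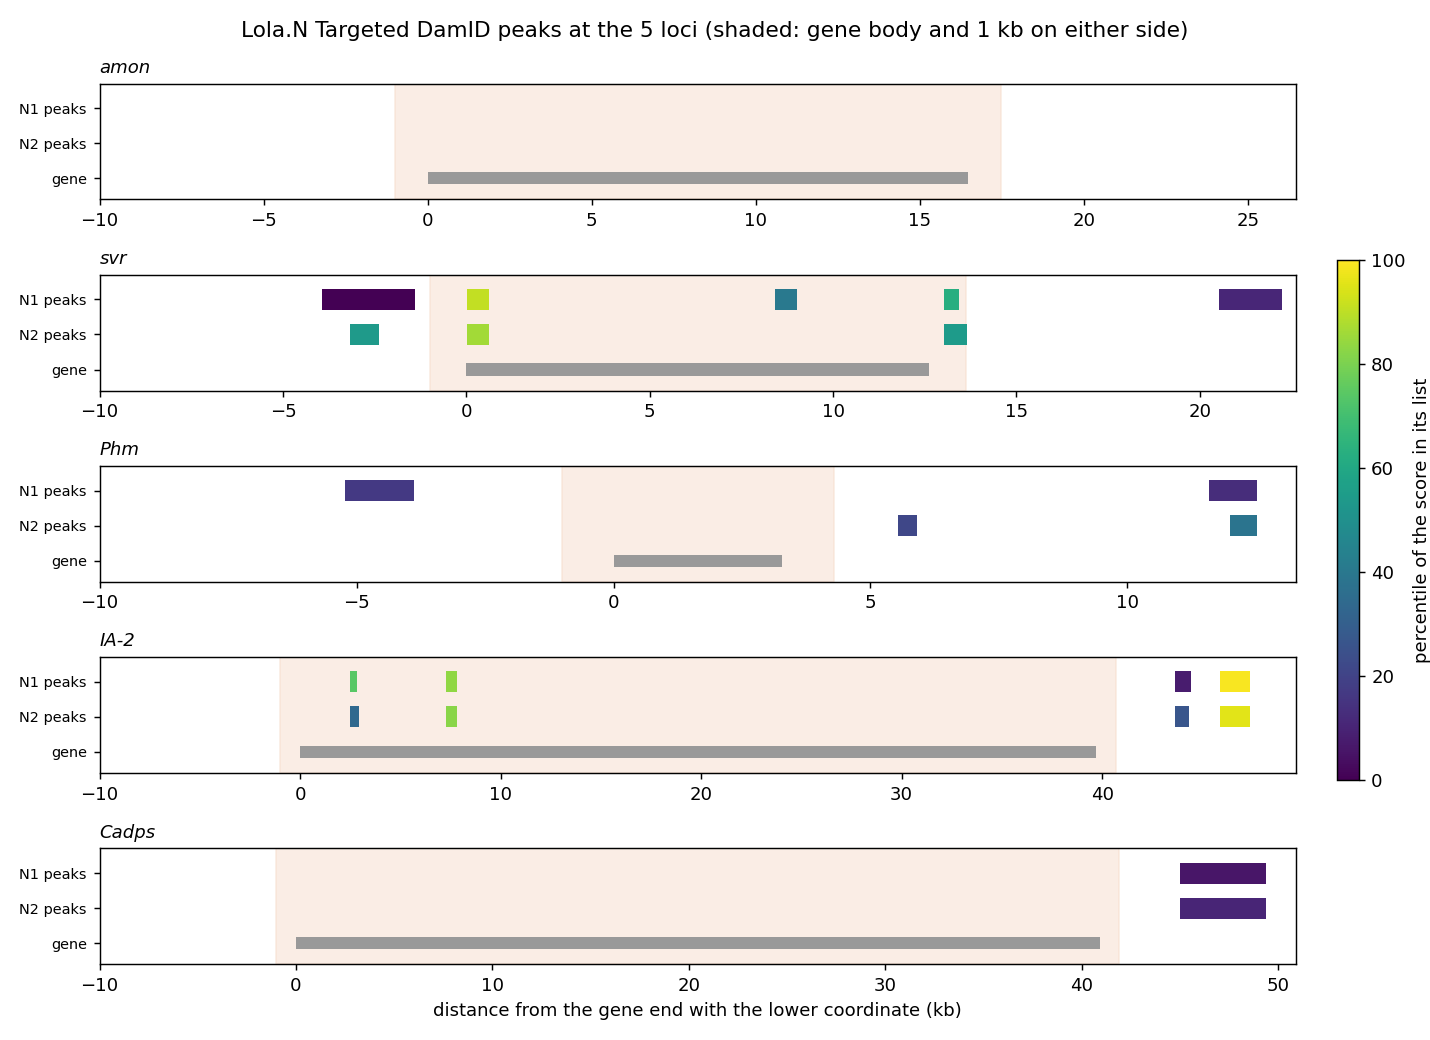
Lola.N peaks of N1 and N2 (coloured by the percentile of the score within the list) along each gene (grey bar), in kb from the gene end with the lower coordinate, with the counted window shaded. IA-2 and svr have 2 intervals of both replicates each inside the window, and amon, Phm and Cadps have 0.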

How the data were processed

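RNA was measured in 9 libraries and Lola.N contact in 2 Targeted DamID replicates; the Dam-only samples were not analysed here as such. The RNA table deposited by the authors holds raw counts per gene. Per the submitters' processing notes, Subread, featureCounts and limma were used, with no versions or roles, and no source used here states the build or annotation. The deposited peak files hold 4676 (N1) and 4544 (N2) peaks, called for each replicate, per the file names, at an FDR of 0.01 and relative to Dam alone, each with the authors' score.

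Counts were filtered with filterByExpr, scaled by TMM and fitted in edgeR 4.0.16 (R 4.3.3) with 1 mean per genotype over all 9 libraries, and checked on simulated data. SE is the log2 difference over the root of its F statistic, and CPM profiles carry a prior count of 2. Alternatives used limma 3.58.1 and DESeq2 1.42.0. Peaks were intersected (at least 1 base, giving 3342 intervals) in Python 3.11.15 with pandas 2.3.3 and scipy 1.17.1. With intervals in place, 2802 of 17807 genes had an end within 1 kb, against 2380 and 2400 after a shift of 5000 bases to either side. No library duplicated another (chi-square per degree of freedom of at least 10.3 within genotypes). Of 118 entries in 4 pathway lists, 1 was not found (Pick1) and 1 was matched by a synonym.

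The 5 genes, the lists and the tests were chosen with earlier results of these data known. Named besides the 5 genes were the mutated genes, all processing genes, up to 3 called genes per list, direction and comparison, and the 2 nearest profiles per gene. Outside that rule, elav, dimm, Dh31, Dh44, Crz, Mip, Ptth, single cell type markers and the genes placed over IA-2 were named too.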

Additional observations from a re-analysis of the deposited data

Results flagged for a closer look

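The differences of both mutants from the shared WT libraries were themselves unlike for 2 genes, as tested by the direct comparison of lola[E76] with nerfin-1[159] clones. For IA-2 the log2 difference was 2.66 (edgeR adjusted p = 7.05e-09), with all 3 lola[E76] libraries above and all 3 nerfin-1[159] libraries below those of WT. For amon it was -6.27 (edgeR adjusted p = 2.8e-05), with 1 count summed over the lola[E76] libraries and 92 over those of nerfin-1[159].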

How the results depend on the processing

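Results were recomputed under 16 alternatives (RLE or library size scaling, no filter, DESeq2, limma voom, a replicate block, 2 genotypes alone, and each library left out). The calls of amon and IA-2 held under all 16, and those of svr were lost in 4 per comparison, each without 1 library. No value named here changed sign past the threshold. Of 45 called pairs of another named gene and comparison, 11 lost the call under at least 1 alternative. With 1 library left out, lola[E76] against WT had 315 to 497 genes called (484 with all), the lowest of these with WT replicate 1 or 2 left out, and nerfin-1[159] against WT had 1 or 2 of the 5 genes called, with 1 without WT replicate 1 or 2 or nerfin-1[159] replicate 2 or 3. A window of 5 kb gave 7 Lola.N intervals at the 5 genes instead of 4, of which 1 was at Cadps. Replicate numbers did not pair libraries: deviations of same-numbered libraries correlated at -0.056 to 0.023 across genes, and only 1 library of 9 had its highest correlation with one of its own number. With the replicate block 431, 820 and 1080 genes were called in the 3 comparisons, against 484, 889 and 1156, and no call of the 5 genes changed. Depth limits the folds of amon, dimm, CCAP-R, rk, AstA-R2, Dh44 and Crz, where a group holds 0 or 1 counts.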
